A study of Rattus norvegicus with 24 samples.

Results

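The retinas of male Sprague Dawley rats were examined 3 months after streptozotocin (STZ) or vehicle. Diabetic rats had received 65 mg/kg STZ in citrate vehicle by the intraperitoneal route, control rats the vehicle alone, and no rat was given insulin. STZ is toxic to pancreatic beta cells, the source of insulin, and only rats that became hyperglycemic were kept in the STZ groups, so that the model is one of untreated insulin deficiency in male rats. Whole retina RNA was measured on 1-color CodeLink rat arrays, each spot of which holds a short DNA probe. Each array was taken as 1 rat, which the labels do not state. The paper lists fewer control rats than there are control arrays at 1 month, so this may not hold for that group. There were 6 STZ and 6 control arrays at 3 months, which are described here, and 6 of each at 1 month, out of 24 arrays in all.

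Each probe was given its percentile among the 33849 rat probes of its own array, where 100 is the brightest, because the arrays differed in brightness and spread. A gene was described as raised when its percentiles on all 6 STZ arrays lay above those on all 6 control arrays, and as lowered when all 6 lay below. Of 4012 genes that a RefSeq accession tied to a probe, 2777 had a probe with a median percentile above 35 over the 12 arrays and were tested. Of these, 212 were raised, which is 7.63%, and 57 were lowered, which is 2.05%.

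The retina turns light into nerve signals. Rods and cones pass the signal through bipolar and amacrine cells to ganglion cells, while Mueller glia span the tissue and handle potassium, glutamate and GABA. Mueller glia and microglia respond to many kinds of injury by making intermediate filaments, complement, chemokines and protease inhibitors, and in diabetes the retina is known for leaky vessels, glial activation and loss of neurons. In whole retina, fewer cells of a type and less RNA per cell cannot be told apart.

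The arrays of the groups were not alike. The median intensity of the deposited, background-subtracted values was 149 to 308 on the control arrays and 125 to 164 on the STZ arrays, and the interquartile range of log2 intensity was 1.48 to 2.23 and 2.07 to 2.70, respectively. Group membership explained 53.8% of how median intensity varied between arrays, and 67.3% for the interquartile range. Array Control 2 stood apart, with a median correlation of 0.778 to the other control arrays over all rat probes, against 0.924 to 0.969 for every other 3 month array with its own group. Array Control 6, with a median intensity of 149, was dimmer than 3 of the STZ arrays, and it was the control nearest to the STZ arrays for 122 of the 212 raised and 36 of the 57 lowered genes. The photoreceptor genes Sag (arrestin) and Prph2 (peripherin 2, of the disc rim) lay at percentile 99.8 or above on all 12 arrays, in keeping with the labelled tissue. The p-values given here measure the spread between the arrays of a group.

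**Figure D1:**
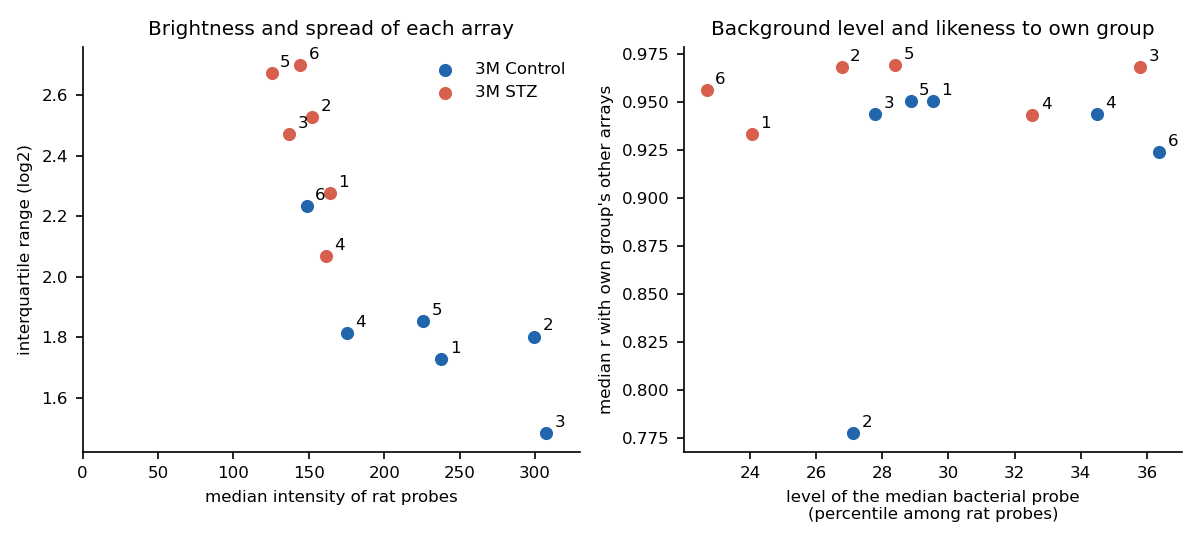
Left, median intensity of each 3 month array against the interquartile range of its log2 intensities; right, the median percentile of the 62 bacterial probes of each array against its median correlation with the other arrays of its group. Numbers are replicate numbers and colors are the groups: the STZ arrays sit at lower intensity and wider spread than most controls, Control 6 lies among the STZ arrays in intensity, and Control 2 has the lowest correlation, 0.778.

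The raised genes had a median control percentile of 56.0 and a median STZ percentile of 70.5. Their differences of group medians ran from 0.359 to 41.6 percentile points, with a median of 12.9, and their log2 differences after quantile normalization of the 12 arrays from 0.18 to 2.44. The lowered genes went from a median of 65.2 in controls to 49.0 in STZ rats, with differences from -31.3 to -0.0945 points, a median of -14.4, and log2 differences from -1.50 to -0.31. Over all tested genes the median difference was 0.223 points, and the median log2 difference 0.08. The diabetic retinas thus held more raised than lowered genes by this rule, with median log2 differences of 0.76 and -0.73 after quantile normalization and of 0.96 and -0.62 on median-scaled values. Without Control 2 the rule gave 226 raised and 72 lowered genes, and without Control 6 it gave 401 and 173. All 212 and 57 genes were among them each time. The rule ensures this, since a separated gene stays separated when an array is left out, so it is no test of stability.

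Over all 22044 tested probes, named or not, 1196 (5.43%) were raised and 491 (2.23%) lowered. Just inside the rule were Vim, whose groups were 0.00886 points apart, and Ppy among the raised genes and Hnrnph1 among the lowered ones. Just outside it were S100a4, whose groups touched at a gap of 0, Prph2, Tacr2 and Ppia. The gap between groups was under 1 point for 68 raised and 27 lowered genes, so that these rest on a narrow margin.

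**Figure D2:**
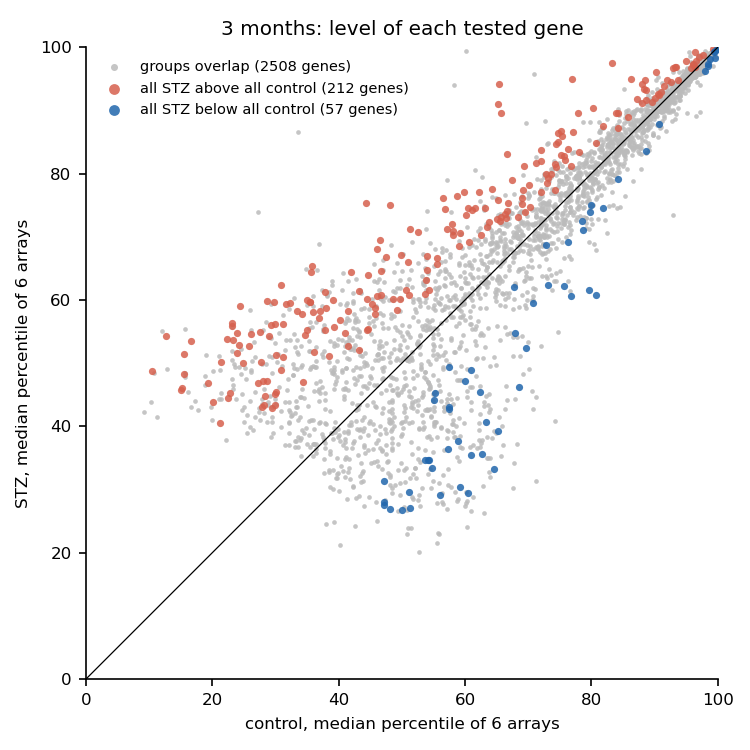
Median percentile of each of the 2777 tested genes in the 6 control retinas (x axis) and in the 6 STZ retinas (y axis) at 3 months. The 212 raised genes lie above the diagonal over the whole range of control levels, and the 57 lowered genes lie below it, with a median control percentile of 65.2.

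As a test that takes the spread into account, limma was fitted to the percentiles of all tested probes. At a Benjamini-Hochberg adjusted p under 0.05 it called 1993 probes (9.04%) higher and 1517 (6.88%) lower in STZ retinas, and among the genes 335 (12.1%) and 192 (6.91%). It called 164 of the 212 raised and 48 of the 57 lowered genes, from the same arrays as the rule and so not as separate support. The balance of the directions rested on the scale: on log2 values that were only scaled to each array's median, limma called 8138 probes higher and 1909 lower, and the median log2 difference of all tested genes was 0.47 in place of 0.08. All 212 raised genes were positive on that scale too, whereas 11 of the 57 lowered genes turned positive. With the median intensity of the array as a covariate limma called 0 probes, with 1128 at an unadjusted p under 0.05, and the median fitted difference was 6.47 points for the raised genes (15.6 without the covariate) and -7.90 for the lowered ones (-16.7 without it). Brightness and diabetes therefore cannot be told apart over these arrays.

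The raised genes with the largest log2 differences, Lgals3, Timp1, Slc6a11, Cebpd and Serping1, had control medians above percentile 65. Lgals3, which codes for galectin 3, a sugar-binding protein of macrophages and reactive glia, lay between percentile 41.0 and 73.3 (median 65.4) in the controls and between 83.2 and 97.2 (median 94.1) in STZ retinas. The lowest STZ retina was thus well above the highest control. Lgals3 rose 5.41-fold, by 2.44 ± 0.30 on the log2 scale (SE, n = 6 and 6; limma adjusted p = 0.00812 on the percentiles).

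Timp1, the tissue inhibitor of metalloproteinases 1, ranged from 75.8 to 80.3 (median 77.0) in controls and from 87.5 to 99.99 (median 94.9) in STZ rats, and rose by 2.21 ± 0.61 on the log2 scale (limma adjusted p = 0.00409). The controls were close together, whereas the 6 STZ retinas spread up to the top of the array. Slc6a11, the GABA transporter GAT-3, was at 56.5 to 73.1 (median 65.2) in controls against 83.2 to 95.8 (median 90.9), a rise of 1.95 ± 0.23 (limma adjusted p = 0.00409). Here too every STZ retina was well clear of the controls. Serping1, the inhibitor of complement C1, was at 43.9 to 75.3 (median 65.6) against 80.0 to 94.2 (median 89.6) and rose by 1.79 ± 0.27 (limma adjusted p = 0.0116).

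Cebpd, a transcription factor of the acute phase response, reached 92.6 to 98.8 (median 97.4) in STZ retinas, where the controls lay between 53.8 and 88.5 (median 83.3), a rise of 1.92 ± 0.35 (limma adjusted p = 0.0278). Its lowest control was Control 2, far under the rest. The call for Cebpd was lost when any 1 of Control 3, STZ 2, STZ 3, STZ 5 or STZ 6 was left out (highest limma adjusted p 0.0625), with differences of 11.8 to 18.7 points.

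For Decr1, Clec4f and Ifit1 a single STZ array lay far above the other STZ arrays. Decr1, an enzyme of unsaturated fatty acid oxidation, was at 44.6 to 76.8 (median 71.3) in controls and at 80.5 to 99.6 (median 81.7) in STZ retinas, with STZ 1 at the top. Clec4f, a C-type lectin receptor, was at 17.4 to 49.1 (median 35.04) against 56.1 to 98.7 (median 59.9), and Ifit1, an interferon-induced protein, at 8.45 to 42.0 (median 28.01) against 43.9 to 99.3 (median 47.1), again with STZ 1 highest. Without STZ 1 the fitted differences were 15.3 points for Decr1 (limma adjusted p = 0.0640, against 18.1 and 0.0305 with it), 25.2 for Clec4f (0.0250) and 22.2 for Ifit1 (0.0346). The call for Decr1 was also lost without any 1 of Control 1, Control 3, STZ 2, STZ 3, STZ 5 or STZ 6, and that for Ifit1 without any 1 of these 6 arrays.

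The largest steps in percentile were those of genes that were dim in controls. Tex101, a germ cell surface protein, moved most, from 5.1996 to 45.8 (median 12.7) in controls to 52.4 to 55.9 (median 54.3) in STZ retinas, a rise of 1.32 ± 0.22 on the log2 scale (limma adjusted p = 0.0104). Ackr2, a scavenging receptor for chemokines, was at 1.16 to 37.0 (median 10.5) against 42.8 to 53.6 (median 48.8), a rise of 1.35 ± 0.25 (limma adjusted p = 0.00891). The STZ values of both were closer together than the control values and lay around the middle of the array. The control medians of both lay under the filter level. They were also below 27.1, the lowest median percentile of the bacterial probes on a control array. The sizes of both rises thus start from a level not above background.

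Osgin1, an oxidative stress-induced growth inhibitor, was at 10.05 to 36.9 (median 16.6) against 47.2 to 63.9 (median 53.5), and Smad3, which carries the transforming growth factor beta signal to the nucleus, at 2.04 to 31.9 (median 15.6) against 42.7 to 58.2 (median 51.4). Both rose, Osgin1 by 1.28 ± 0.18 (limma adjusted p = 0.00624) and Smad3 by 1.32 ± 0.22 (0.00626). Their control medians too lay under the filter level and below the median bacterial probe of every control array. The sizes of these rises start from a level not above background. P2ry6, a receptor for extracellular UDP that microglia use in phagocytosis, was at 5.66 to 25.8 (median 15.5) against 46.5 to 54.3 (median 48.3). It had the widest gap of these genes, with a rise of 1.19 ± 0.15 (limma adjusted p = 0.00409). All its controls lay below 27.1, the lowest median percentile of the bacterial probes on a control array. Its gap and rise thus also start from a level not above background. Tgfbr3, a coreceptor for transforming growth factor beta, went from a median of 23.1 to 55.9, and C4bpa, which binds complement C4b, from 24.3 to 59.0.

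Ltb4r (the leukotriene B4 receptor), Fut2 (a fucosyltransferase), Nr0b1 (an orphan nuclear receptor) and Pdia4 (a protein disulfide isomerase of the endoplasmic reticulum) had control medians of 23.1, 22.3, 30.9 and 28.6 and STZ medians of 56.3, 53.8, 62.4 and 59.8. Hif3a, a hypoxia-inducible factor subunit, went from 44.3 to 75.3, and Neu2, a cytosolic sialidase, from 48.1 to 74.96. The control medians of Ltb4r and Fut2 lay below the median level of the probes for bacterial sequences on every control array. Those of Nr0b1 and Pdia4 lay within its range, and those of Hif3a and Neu2 above it. That level was at percentile 27.1 to 36.4 on control and 22.7 to 35.8 on STZ arrays. Among the 212 raised genes, 130 lay above that level on all 12 arrays and 5 lay below it on every control. Of the 2119 genes above it on all 12 arrays, 6.13% were raised and 1.84% lowered, an excess of raised genes above that median level. Over probes this filter left 670 of 1196 raised and 378 of 491 lowered. The brighter bacterial probes were not used as a level. In values divided by a constant near the array's median, their 95th percentile was 1.16 to 1.71 on control and 1.30 to 1.70 on STZ arrays. Levels around the middle of the array thus lay within the range of these probes.

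Among the lowered genes, Cd46 had the largest step. It codes for membrane cofactor protein, a surface regulator of complement, and lay between 44.0 and 94.4 (median 64.6) in controls and between 24.8 and 41.9 (median 33.2) in STZ retinas, a fall of 1.504 ± 0.43 on the log2 scale (limma adjusted p = 0.0166). The highest control was Control 2, and without it the difference was -26.1 points in place of -31.8 (limma adjusted p = 0.00835). Tyms, the thymidylate synthase of DNA synthesis, had tight groups, with 49.3 to 65.02 (median 60.4) in controls and 22.6 to 38.3 (median 29.5) in STZ retinas. It fell by 1.07 ± 0.16 on the log2 scale (limma adjusted p = 0.00513), the smallest p of the lowered leaders, and stayed called whichever of the 12 arrays was left out.

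Slc24a2, the sodium, calcium and potassium exchanger of cones, was at 45.6 to 84.97 (median 62.7) in controls and at 20.8 to 40.9 (median 35.6) in STZ retinas, and fell by 1.26 ± 0.28 (limma adjusted p = 0.0122). Sstr5, a somatostatin receptor, was at 44.5 to 92.4 (median 59.1) against 16.5 to 44.3 (median 30.4), so that its groups all but touched, and fell by 1.30 ± 0.41 (limma adjusted p = 0.0215, lost without STZ 5 or STZ 6). Cmklr2, a receptor for chemerin, was at 42.0 to 75.3 (median 56.0) against 14.3 to 41.1 (median 29.1), a fall of 1.10 ± 0.24 (limma adjusted p = 0.0137). The STZ values of all 3 were spread widely below the controls.

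Of the leading genes, Lum and Fbn1 code for matrix proteins. Lum codes for lumican, a collagen-binding proteoglycan, and was at 53.3 to 91.1 (median 65.2) in controls against 28.5 to 50.4 (median 39.2), a fall of 1.30 ± 0.34 (limma adjusted p = 0.0149). Fbn1 codes for fibrillin 1 of the microfibrils and was at 43.7 to 77.1 (median 60.9) against 31.7 to 40.8 (median 35.5), a fall of 1.02 ± 0.24 (0.0141 by limma). Fn1, the fibronectin gene, was also called lower, by 1.53 ± 0.60 on the log2 scale, but its groups overlapped, with 42.1 to 99.0 in controls and 24.7 to 53.1 in STZ retinas.

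Bright genes were among the lowered leaders too. Stx7, a syntaxin of late endosomes, was at 74.4 to 97.8 (median 79.7) in controls and at 57.2 to 63.6 (median 61.6) in STZ retinas and fell by 1.48 ± 0.35 (limma adjusted p = 0.0109). Kcne2, a small subunit of potassium channels, was at 74.0 to 92.8 (median 80.7) against 55.6 to 70.8 (median 60.8) and fell by 1.23 ± 0.24 (limma adjusted p = 0.0117). Cat, the catalase that removes hydrogen peroxide, was at 69.6 to 91.4 (median 76.7) against 53.8 to 64.4 (median 60.7) and fell by 1.13 ± 0.24 (limma adjusted p = 0.0139). All 3 kept their call whichever array was left out, and none of their STZ retinas reached the lowest control.

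C1s, a protease of the first complement component, was at 49.1 to 90.0 (median 57.3) in controls and at 2.57 to 47.1 (median 36.4) in STZ retinas, a fall of 1.33 ± 0.42 (limma adjusted p = 0.0262). Its highest control was Control 2 and its lowest STZ array STZ 2, both far from the others, and the call was lost without any 1 of Control 1, Control 3, STZ 5 or STZ 6. The other lowered leaders were Myd88, the adaptor of Toll-like and interleukin 1 receptors (medians 50.03 and 26.8), Pip4k2b, a phosphoinositide kinase (51.3 and 27.1), Id4, an inhibitor of helix-loop-helix factors (63.3 and 40.7), and Qrfp, a neuropeptide (68.5 and 46.2). With them stood H2bc1, a histone of germ cells (51.2 and 29.7), and Aspg, an asparaginase (48.1 and 26.9). Of these 6, limma lost the call of Id4, Qrfp and Aspg without single arrays, among them STZ 5 and STZ 6 for each of the 3. Of all 38 leading genes, 30 (18 raised and 12 lowered) kept the limma call whichever of the 12 arrays was left out.

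**Figure D3:**
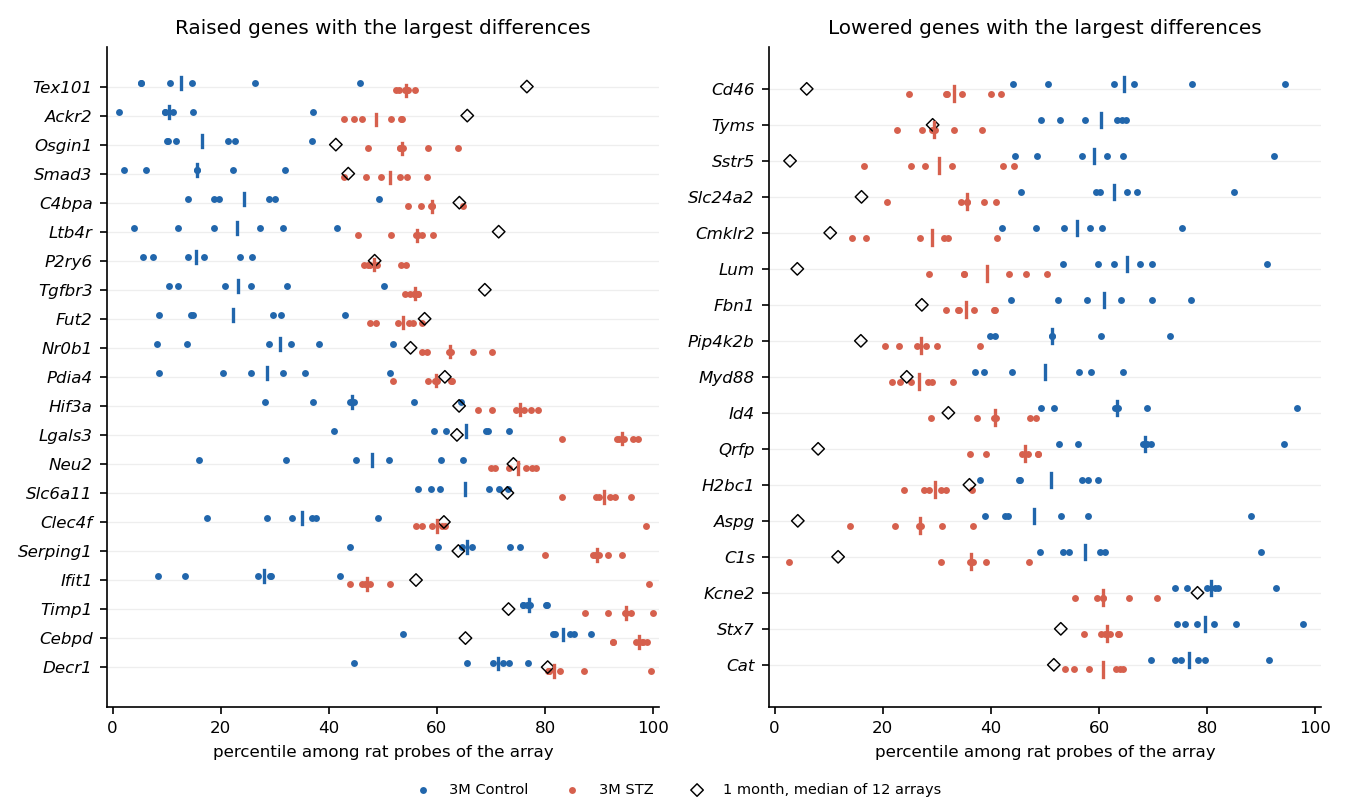
Percentile of each leading raised gene (21, left) and lowered gene (17, right) on each of the 6 control and 6 STZ arrays at 3 months, with bars at the group medians and diamonds at the median of the 12 arrays of 1 month. The groups do not overlap, as the rule requires; the diamonds of 16 raised and 16 lowered genes lie nearer to the STZ than to the control median.

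Promoters were read from the RefSeq table of build GRCr8, which holds the bases from 250 before to 50 after each start, and 160 raised and 51 lowered genes had one. The motif of STAT factors, TTCNNNGAA, was found on either strand in 6.88% of the raised, 7.84% of the lowered and 6.93% of all tested promoters. The NF-kB motif was in 11.9%, 13.7% and 9.79%, and the E-box CACGTG in 10.6%, 7.84% and 8.40%, respectively. The cyclic AMP response element TGACGTCA was in 0 of the 160 raised and 0 of the 51 lowered promoters, against 2.32% of all tested ones. The shares of the first 3 motifs rested on 4 to 19 promoters each. Of all 27457 promoters in that reference 8.68% held the STAT motif, 7.60% that of NF-kB, 6.65% the E-box and 1.91% the cyclic AMP element.

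Shown here are the 250 bases before the start of 2 raised and 2 lowered leaders that hold a motif, shown so that the direction of change can be read beside the letters searched for. Capitals mark the motif, an E-box in Neu2, a STAT motif in Osgin1, and NF-kB motifs in Sstr5 and Fbn1, beginning 19, 197, 154 and 116 bases before the start. The regions are chr9:95711738-95711987 on the plus strand for Neu2, chr19:64393651-64393900 on the plus strand for Osgin1, chr10:15017470-15017719 on the minus strand for Sstr5 and chr3:133203391-133203640 on the minus strand for Fbn1. A match is only a run of letters and says nothing about binding of a factor in these retinas.
Neu2: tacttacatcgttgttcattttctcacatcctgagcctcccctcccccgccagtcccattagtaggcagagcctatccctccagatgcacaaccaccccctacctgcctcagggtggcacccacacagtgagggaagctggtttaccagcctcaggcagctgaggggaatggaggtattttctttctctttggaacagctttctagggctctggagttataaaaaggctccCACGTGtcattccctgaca
Osgin1: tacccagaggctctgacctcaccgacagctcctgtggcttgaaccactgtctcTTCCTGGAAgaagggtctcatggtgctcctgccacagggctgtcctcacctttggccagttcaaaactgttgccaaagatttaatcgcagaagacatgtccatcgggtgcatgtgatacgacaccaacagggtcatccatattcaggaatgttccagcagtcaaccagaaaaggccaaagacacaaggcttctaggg
Sstr5: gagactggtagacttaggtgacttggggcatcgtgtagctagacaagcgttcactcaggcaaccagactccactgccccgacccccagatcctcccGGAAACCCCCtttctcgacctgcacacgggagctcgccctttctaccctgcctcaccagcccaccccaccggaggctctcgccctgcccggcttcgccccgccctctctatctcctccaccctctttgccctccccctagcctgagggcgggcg
Fbn1: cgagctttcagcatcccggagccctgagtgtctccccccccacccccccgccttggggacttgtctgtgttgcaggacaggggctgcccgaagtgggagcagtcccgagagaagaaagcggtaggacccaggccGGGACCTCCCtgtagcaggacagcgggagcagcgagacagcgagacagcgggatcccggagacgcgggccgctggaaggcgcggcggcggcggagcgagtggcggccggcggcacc

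The NF-kB letters thus stood in promoters of lowered genes as well as raised ones.

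Gene lists by function were then counted, each against the 7.63% raised and 2.05% lowered among all tested genes. Complement had members in both directions. Of 9 tested genes C1qb, C2, Clu and Serping1 were raised and C1s and C6 lowered, and limma called 6 higher and 2 lower, with a median difference of 11.7 points against 0.223 over all genes. C1qb, a chain of the first component that microglia make, was at 32.7 to 65.1 (median 51.2) in controls against 69.2 to 73.9 (median 71.2), and Clu, the secreted chaperone clusterin, at 94.1 to 96.4 against 97.3 to 98.6. C3, the central component, and C4a also rose by limma, with medians of 24.2 and 49.4 for C3, though their groups overlapped. C6, of the membrane attack complex, fell from 39.5 to 71.3 (median 53.6) to 29.8 to 39.1 (median 34.7). Within the list, the chain C1qb and the inhibitor Serping1 were raised and the protease C1s was lowered. Outside it, the regulators C4bpa and Cd46 differed in opposite directions, by 34.7 and -31.3 points.

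Protease inhibitors moved both ways as well, with 4 raised and 3 lowered of 18 and a median difference of 1.73 points. A2m, the broad inhibitor alpha 2 macroglobulin, rose by 1.11 ± 0.20 on the log2 scale at the very top of the array (medians 96.4 and 99.3). Timp2 rose from a median of 80.2 to 90.4 and Serpina3n, an acute phase serpin of reactive astrocytes, from 75.3 to 86.0. Itih4, a plasma inhibitor, fell from 54.3 to 34.7, and Spink1, a trypsin inhibitor, from 60.0 to 47.1. Serpini1, the neuronal serpin, was at 75.5 to 82.2 in controls and 69.7 to 74.4 in STZ rats, with a limma adjusted p of 0.0512, and its log2 difference was 0.02 on median-scaled values.

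Of 16 tested genes of stress-activated glia 6 were raised (Cd44, Cebpd, Cp, Lgals3, Lgals3bp and Vim) and 0 lowered, and limma called 8 higher, 0 lower and did not call the other 8, with a median difference of 10.2 points. Cp, the copper-carrying ferroxidase ceruloplasmin, was at 85.1 to 91.0 (median 86.2) in controls against 93.0 to 97.3 (median 94.9) and rose by 1.07 ± 0.15 (limma adjusted p = 0.00409). Cd44, the hyaluronan receptor, rose from a median of 71.9 to 83.7, and Lgals3bp, a ligand of galectin 3, from 66.5 to 83.2. Hmox1, the heme oxygenase induced by stress, was called higher with the largest log2 difference of the list, 2.50 ± 0.43, but 1 control reached 48.8 and 1 STZ retina was at 47.2, so that its groups overlapped. Vim, an intermediate filament of Mueller glia, was at 98.7 to 99.4 against 99.4 to 99.8 (limma adjusted p = 0.0809). Gfap, the filament of astrocytes and reactive Mueller glia, had medians of 61.6 and 80.6 and a limma adjusted p of 0.0575, with overlapping groups.

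Genes of resting Mueller glia differed among themselves. Of 12 tested, Slc6a11 and Slc15a2 were raised and Kcnj10 was lowered. Slc15a2, a peptide transporter, was at 52.6 to 79.7 (median 75.2) against 84.9 to 90.6 (median 86.7) and rose by 1.13 ± 0.23, whereas a second probe of the gene differed by -12.8 points (limma adjusted p = 0.101). Kcnj10 codes for the inward rectifier Kir4.1, through which these cells clear potassium. It was at 71.1 to 81.3 in controls and 61.5 to 70.9 in STZ rats (limma adjusted p = 0.101). Its log2 difference was -0.40 ± 0.15 after quantile normalization but -0.01 on median-scaled values.

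The immune lists, as drawn up, held a few raised and no lowered genes. Immune genes outside these lists went both ways. Ccl17, Tnfsf15, Klrg1, Myd88 and Cmklr2 were lowered, and others, such as Cd80 and Il2rb, were raised. Among 17 cytokines, chemokines and receptors 3 were raised and 0 lowered, including Ccl2, which attracts monocytes, at 49.1 to 66.0 (median 58.7) against 66.6 to 85.6 (median 76.4), and Il1a, from a median of 35.4 to 59.7. Of 10 antigen presentation genes, Cd74, the invariant chain, rose from 62.2 to 77.1, with groups that nearly touched, and Fcgrt, the receptor that recycles antibody, was separated at medians of 65.2 and 75.8 (limma adjusted p = 0.0821). Limma called 1 gene of that list lower, Ciita, a regulator of class II genes, with overlapping groups (medians 68.2 and 54.2). Of 7 interferon response genes, Ifit1 and Ifitm2 were separated, the latter at 78.0 and 83.5 (limma adjusted p = 0.130), and limma called 1 gene of the list higher and 1 lower. Of 7 tested markers of microglia and leukocytes only C1qb was separated and called.

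Vessel genes gave few separated members. Cspg4, a proteoglycan of pericytes, rose from 34.0 to 65.7 (median 58.0) to 67.3 to 74.1 (median 70.3), and Vcam1, an adhesion molecule of activated endothelium, had medians of 63.4 and 71.6 (limma adjusted p = 0.0575), these being 2 of the 15 endothelial and pericyte genes. Of 16 matrix genes Fmod (fibromodulin) and Plat (tissue plasminogen activator) were raised, with medians of 27.9 and 43.1 for Fmod and 74.2 and 81.5 for Plat, and Lum was lowered. Fmod stayed below the middle of the array in every retina.

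The photoreceptor lists held lowered but no raised genes. Of 13 rod genes Grk1, Kcne2 and Rcvrn were lowered, and limma called 2 lower and 0 higher. Grk1, the rhodopsin kinase, was at 99.4 to 99.8 (median 99.5) in controls and at 95.8 to 98.7 (median 98.3) in STZ retinas and fell by 1.07 ± 0.17 on the log2 scale (limma adjusted p = 0.0255 on the percentiles). Rcvrn, the calcium sensor recoverin, had medians of 99.8 and 99.7 (limma adjusted p = 0.478) and a log2 difference of -0.51 after quantile normalization but 0.30 on median-scaled values. The median difference of the rod list was -0.0945 points, and its median log2 difference was -0.39 after quantile normalization but 0.30 on median-scaled values, the opposite sign. Grk1 was negative on both scales, at -0.31 on median-scaled values, where limma did not call it (adjusted p = 0.215). Of 4 cone genes Slc24a2 was lowered.

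Ganglion cell genes (13 tested) and bipolar and amacrine cell genes (12 tested) had 0 raised and 0 lowered members, and limma called 0 in either direction; their median differences were -0.374 and -0.204 points. Receptor and channel lists had few separated members. Gria4, a glutamate receptor subunit, fell from 51.7 to 85.2 (median 62.4) to 41.8 to 51.3 (median 45.4), and it was the separated member of 13 glutamate receptor genes. Glra3, a glycine receptor subunit, rose from a median of 22.4 to 44.4, and Gabra4, of the GABA-A receptor, was at medians of 76.2 and 83.9 (limma adjusted p = 0.0523). Amph, amphiphysin of synaptic vesicle recycling, rose from 23.2 to 53.7 and was the separated member of 18 synaptic genes.

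Among 29 potassium channel genes Hcn4, the slow pacemaker channel, and Kcnb2 rose, from medians of 26.0 to 54.6 and 34.7 to 54.5, while Kcne2, Kcnj10 and Kcnj14 were lowered. Kcnj14 was at 97.5 to 98.8 against 89.0 to 97.0 (limma adjusted p = 0.0795). Its log2 difference was -0.67 after quantile normalization but -0.02 on median-scaled values. Scn3b, an auxiliary subunit of sodium channels, rose from 85.3 to 92.5 (median 88.4) to 93.7 to 95.3 (median 94.8), a log2 difference of 0.74 ± 0.14. The raised potassium channels were dim and the lowered ones bright in controls.

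The metabolic lists had few separated members. Of 20 respiratory chain genes Ucp2, a mitochondrial carrier that lowers oxidant production, was raised (33.3 to 58.3), and of 24 genes of glycolysis and the citrate cycle Pdk2, the kinase that shuts off pyruvate dehydrogenase, rose from 89.6 to 91.3. Of 27 fatty acid oxidation genes Acadl and Decr1 were raised. Acadl, an acyl-CoA dehydrogenase, went from 69.3 to 81.1, though its second probe differed by -2.27 points. The sterol genes Dhcr7 and Cyp51 went opposite ways, Dhcr7 from 72.0 to 81.9 and Cyp51 from 79.9 to 75.03 (limma adjusted p = 0.0590; log2 difference 0.09 on median-scaled values). Of 23 ribosomal protein genes Rpl22 (97.1 and 98.4) and Rps23 (48.6 and 60.1) rose. The 13 tested genes of insulin and IGF signalling had 0 raised and 0 lowered members, and limma called 1 in each direction.

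Among 28 antioxidant and metal-binding genes Cp, Gss, Prdx4 and Ucp2 were raised and Cat was lowered, and limma called 6 higher and 1 lower. Gss, the glutathione synthetase, was at 41.5 to 68.4 (median 60.2) against 71.9 to 78.9 (median 73.4), and Prdx4, a peroxiredoxin of the endoplasmic reticulum, at 57.2 to 72.9 (median 69.1) against 76.3 to 83.4 (median 77.3). Of 21 apoptosis regulators Bik was separated at medians of 76.8 and 81.2 (limma adjusted p = 0.117).

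Of 12 clock and melatonin genes Aanat, the rate-limiting enzyme of melatonin synthesis, rose from 23.8 to 51.7 (median 32.2) to 54.5 to 66.3 (median 59.4), and Clock, a core clock factor, rose from a median of 46.8 to 60.8. The time of day of tissue collection is not given in the sources used here. Of 18 immediate early and stress transcription factors Cebpd, Fosl1 and Junb rose, Fosl1 from 27.7 to 50.1 and Junb from 43.2 to 61.4. Sgk1, a kinase induced by glucocorticoids, was separated downward at medians of 99.5 and 99.3 (limma adjusted p = 0.235; log2 difference -0.35, and 0.42 on median-scaled values). Neurotrophic factors and receptors had 0 raised and 0 lowered members of 15; by limma Ntrk2, the receptor of brain-derived neurotrophic factor, Gdnf and Ngfr were lower and Pdgfa was higher, all with overlapping groups, and Ntrk2 fell from a median of 64.8 to 39.0.

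Signalling and structural lists were mixed in strength. Src, a tyrosine kinase, rose from 74.7 to 86.4, whereas Map2k2 and Ppp1ca were separated by narrow margins with limma adjusted p of 0.135 and 0.0706. The G protein subunit Gnai2 rose from 87.2 to 91.9 and the regulator Rgs12 from 53.9 to 66.9, and Rgs19 had medians of 62.4 and 70.3 (limma adjusted p = 0.0853). The spectrin Sptan1 rose (96.1 and 97.2). Differences of 1 to 5 points near the top of the array were common in these lists.

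**Figure D4:**
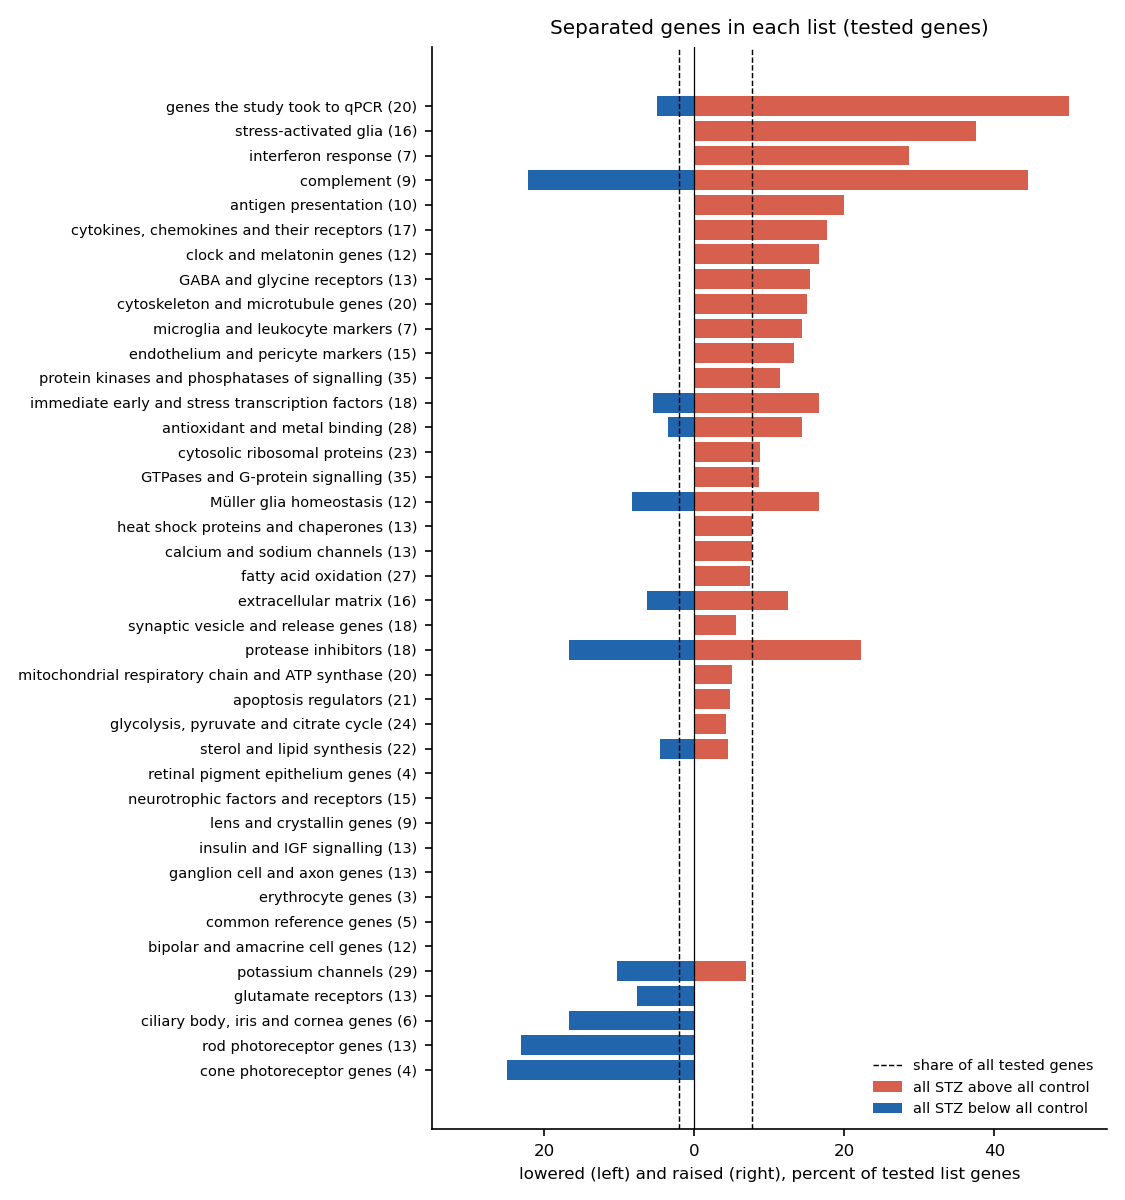
Percent of the tested genes of each list that were raised (to the right) or lowered (to the left) in STZ retinas at 3 months, with dashed lines at the 7.63% and 2.05% of all 2777 tested genes. Complement, stress-activated glia and the genes the study took to qPCR have the highest shares of raised genes, and the rod, cone, glutamate receptor and ciliary body lists show lowered members only.

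Of the 20 tested genes that the study took to qPCR 10 were raised and 1, Kcne2, was lowered, with a median difference of 12.1 points. The study chose that list on these samples, so its count is not independent evidence. The paper then measured these genes by qPCR, also in further sets of rats. There it reports lower levels of Slc6a11 (its GAT3) and Slc15a2 (its PEPT2) at 3 months, whereas both were raised on these arrays. The cause of that difference was not tested. The 5 common reference genes had 0 raised and 0 lowered members. Markers of cells that a dissected retina could carry along were counted beside them. Lens genes (9 tested) had 0 raised and 0 lowered members, with 2 called higher by limma and a mean percentile of 78.4 to 88.7 on control and 79.0 to 97.1 on STZ arrays. Erythrocyte genes (3 tested) lay at 43.7 to 51.5 and 42.7 to 51.4, pigment epithelium genes (4) at 57.6 to 77.5 and 58.9 to 72.2, and genes of ciliary body, iris and cornea (6, with Lum lowered) at 69.3 to 77.7 and 65.6 to 72.1. The part of these cells in any result was not tested.

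Of the 57 lowered genes, 41 were in no list; those named next were chosen after their values were seen. Ptger3, a prostaglandin E2 receptor, was at 40.3 to 58.8 (median 47.1) in controls and at 11.99 to 39.6 (median 28.05) in STZ retinas, and Ramp1, a subunit of the receptor for calcitonin gene-related peptide, at 41.4 to 76.7 (median 54.7) against 22.3 to 38.1 (median 33.4). Ccl17, a chemokine, went from a median of 47.2 to 27.5, Klrg1, a receptor of natural killer and T cells, from 47.2 to 31.3, and Tnfsf15, of the tumor necrosis factor family, from 57.5 to 49.4. All 5 passed limma, and in STZ retinas the median of each lay below the middle of the array.

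Ift81, of the intraflagellar transport particle, was at 69.3 to 80.6 (median 73.0) in controls and at 61.1 to 64.5 (median 62.4) in STZ retinas, and Sclt1, of the distal appendages of the centriole, at 64.2 to 82.3 (median 70.7) against 55.8 to 62.7 (median 59.5). Both are needed to build cilia, from which the outer segments of photoreceptors derive. Nup58 and Nup98 of the nuclear pore fell from medians of 79.8 to 74.0 and 69.6 to 52.3, though a second Nup98 probe differed by +21.9 points (limma adjusted p = 0.0277). Smc1a, of the cohesin ring, fell from 88.6 to 83.6, and Bud31, a splicing factor, from 98.4 to 97.4, but on median-scaled log2 values both were positive, at 0.12 and 0.29.

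Polg, the mitochondrial DNA polymerase, was at 50.3 to 72.5 (median 57.5) against 33.9 to 46.3 (median 43.1), and Ndufaf4, an assembly factor of complex I, at 52.1 to 59.0 (median 55.2) against 40.4 to 51.1 (median 45.2). Surf1, an assembly factor of cytochrome oxidase, fell from 90.7 to 87.8, and Pex2, which peroxisomes need to import proteins such as catalase, from 84.1 to 79.2. Selenos, a selenoprotein that takes part in clearing misfolded proteins, fell from 78.7 to 71.1. On median-scaled log2 values Surf1 and Pex2 were positive, at 0.23 and 0.10, and Polg and Selenos negative, at -0.69 and -0.14. Lipc, a lipase, and Mep1b, a metalloprotease, fell from 54.1 to 34.6 and from 58.9 to 37.6.

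Of the 212 raised genes, 155 were in no list, and these too were named after their values were seen. Subunits of nicotinic acetylcholine receptors were among them, namely Chrna1 (medians 56.8 and 74.4), Chrna6 (25.8 and 52.7), Chrnb2 (59.2 and 70.6) and Chrnb4 (29.2 and 56.0). All were called by limma. The tested subunits were not counted as a list, so no share can be set against the 7.63% of all tested genes. Nlgn1 and Nlgn2, neuroligins that join synapses, rose from 36.9 to 57.1 and from 90.0 to 91.9, and their partner Nrxn2 had medians of 81.7 and 87.5 (limma adjusted p = 0.0727). Gadd45a, a DNA damage response gene, was bright and tight, at 85.7 to 91.5 (median 90.2) in controls and 94.5 to 97.0 (median 96.0) in STZ retinas, with a rise of 0.91 ± 0.12 on the log2 scale (limma adjusted p = 0.00626).

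Tspo, the mitochondrial translocator protein of activated microglia, rose from a median of 37.0 to 58.3, Mvp, the major vault protein, from 59.8 to 77.1, and Anxa5, annexin 5, from 77.9 to 89.6. A second Anxa5 probe was separated the same way, by 10.7 points. Egln3, an oxygen-sensing prolyl hydroxylase, rose from 23.96 to 51.6, beside Hif3a of the hypoxia pathway. Acvrl1, an endothelial receptor of the transforming growth factor beta family, rose from 43.1 to 52.0. Pmp22 (93.2 and 96.9) and Prx (77.0 and 86.5), both known from peripheral myelin, rose too.

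Other probes of the same genes gave a partial check. Among the separated genes 28 had another tested probe, 29 probes in all, and 19 of the 29 differed in the same direction. Most were probes of raised genes, and 58.8% of all tested probes had a positive difference at 3 months. For the lowered genes the check mostly failed. The other probes of Bud31 and Serpini1 differed by -1.69 and -4.77 points, but those of Bin1, Nup98 and Obp2b by 1.81, 21.9 and 15.6 points. Those of 5 genes, among them Anxa5, Adora1, Vcam1 and Fosl1, were separated the same way, and 1, of Amacr, was separated the opposite way, by -5.74 points. The other F2r probe differed by -27.3 points (limma adjusted p = 0.0241) although the brighter one was raised. A gene was represented by its brightest tested probe throughout.

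At 1 month of diabetes the same genes hardly differed. The raised genes had a median difference of 0.981 points at 1 month and the lowered genes of -0.524, against 0.0448 over all tested genes. A positive difference at 1 month was found in 145 of the 212 raised genes (68.4%, against 52.0% of all tested genes), and a negative one in 34 of the 57 lowered genes (59.6%, against 48.0%). Only Flot2 and Dlg1 of the raised genes, and 0 of the lowered genes, were also separated at 1 month, where 0.396% of all tested genes were separated upward and 0.18% downward. Of all tested probes 78 (0.354%) were separated upward and 50 (0.227%) downward at 1 month, and limma called 0, with 1548 at an unadjusted p under 0.05. Flot2, a lipid raft protein, went from 75.2 to 84.2 (median 83.8) to 88.4 to 98.1 (median 89.5) at 3 months.

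The difference between the times was tested in 1 limma model of the 24 arrays. The effect at 3 months was more positive than at 1 month for 1363 probes (6.18%) and more negative for 943 (4.28%), and this held for 107 of the raised and 28 of the lowered genes in their own direction, against 8.17% and 4.68% of all tested genes. The 3 month arrays that chose the genes are part of this test, so the counts describe and do not support them. Lgals3 differed by 27.6 points more at 3 months than at 1 month (limma adjusted p = 0.0424), where its 1 month medians were 62.7 in controls and 66.6 in STZ retinas. Slc24a2 differed by -31.3 points (limma adjusted p = 0.00581), with 1 month medians of 14.6 and 17.3. For Cebpd and Kcne2 the difference between times was not called (limma adjusted p = 0.326 and 0.0651); Kcne2 had 1 month medians of 80.0 in controls and 73.4 in STZ retinas.

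**Figure D5:**
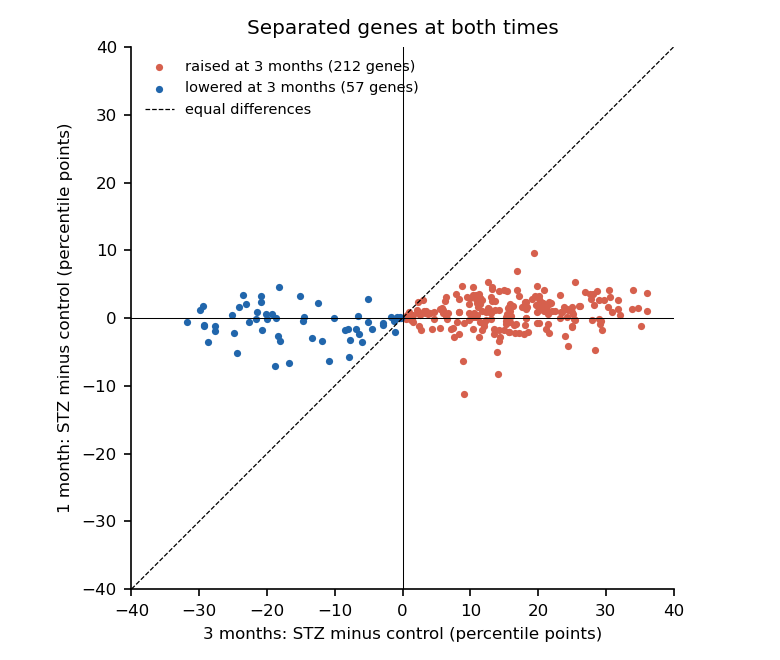
Fitted difference between STZ and control retinas in percentile points at 3 months (x axis) and at 1 month (y axis) for the 212 raised and 57 lowered genes. The 3 month differences spread widely in both directions, while those of 1 month lie near 0, with medians of 0.981 and -0.524 points.

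Set against the level of the 12 retinas of 1 month, the control group of 3 months was for most of these genes the farther of the 2 groups. The median level at 1 month was nearer to the 3 month STZ median than to the 3 month control median for 160 of the 212 raised genes (75.5%) and 45 of the 57 lowered genes (78.9%). Over all tested genes that share was 64.6%. Tex101 was at medians of 76.0 and 78.6 in control and STZ retinas of 1 month, above both groups of 3 months, and Cd46 at 5.47 and 6.09, below both. Age of the rats, time and the run of arrays cannot be told apart between the 1 month and 3 month sets, whose log2 interquartile ranges were 3.36 to 3.67 and 1.48 to 2.70.

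A smaller set had 1 month levels nearer to the 3 month controls, with 52 raised and 12 lowered genes, of which limma called 38 and 7 at 3 months. It included Lgals3, Timp1, Slc6a11, Cebpd and Serping1, the 5 raised genes with the largest log2 differences, and also C1qb, C2, Cp, Cd44, Cd74, Ccl2, Timp2, Lgals3bp and Tspo. Among the lowered genes it held Kcne2, Ift81, Surf1, Smc1a and Ifrd1. For these genes the STZ group of 3 months was the farther one from the 1 month level. The split was made after the values were seen.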

How the data were processed

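Rat retinal RNA was measured on 24 CodeLink arrays, 12 at 3 months. The authors labelled amplified RNA, scanned the slides on an Axon scanner and used the CodeLink software to subtract background, leave out defective spots and normalize within each array. The deposited values are linear intensities, a background-subtracted intensity and the same divided by a constant near the array's median. The latter was used here; the series table held the same values, with 0 differing. Samples were grouped by their titles.

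Probes for bacterial sequences (62 of 33911) were set aside, and percentiles were taken among the 33849 rat probes. Of 5469 probes with a RefSeq accession, 4674 matched the RefSeq gene table (assembly GRCr8), for 4012 genes. Probes with a median percentile above 35 over the 12 arrays were tested; 1235 matched genes had none. Of the 1602 matched probes left out, 72 were separated upward and 24 downward. limma 3.58.1 in R 4.3.3 (lmFit, eBayes with trend) was fitted to percentiles, with Benjamini-Hochberg adjustment over all 22044 tested probes. The 1 month differences came from a separate model of the 12 arrays of 1 month. Only the difference between times came from 1 model of 24 arrays. Log2 differences come from quantile-normalized values with a floor of 0.01. Other tools were Python 3.11.15, pandas 2.3.3, numpy 2.4.6, scipy 1.17.1 and matplotlib 3.10.9.

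Named were the 12 raised and 12 lowered genes with the largest difference of median percentiles, the 12 of each with the largest log2 difference, and up to 6 separated members of each of 40 lists. Each gene is represented by its tested probe with the highest mean percentile. The genes, lists and rules were chosen with earlier results of these data known. Values of some single genes are not reported here. Arrays carry no read depth; their number limits the precision. The scripts were tested on simulated data. The alternatives tried were other filters, scalings, array weights, a brightness covariate, a replicate block, the methods' t-test with unequal variances and leaving out each array; the filter on bacterial probe levels and limma without multiple-test adjustment were added after the data were seen.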

Additional observations from a re-analysis of the deposited data

Results flagged for a closer look

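Among the 38 leading genes and 4 measures of array quality, the 6 arrays of each group were searched for 1 array far from the others. Of 84 groups searched 11 held such an array, where chance gives about 1 in 20. Control 2 was the array in 4 of them: its median correlation with the other controls was 0.778, and it stood at percentile 90.0 for C1s, above the other controls, and at 53.8 for Cebpd and 44.6 for Decr1, below them. STZ 1 stood above the other STZ arrays for Clec4f at 98.7, for Decr1 at 99.6 and for Ifit1 at 99.3. STZ 2 stood below them for C1s at 2.57, for Lgals3 at 83.2 and for Serping1 at 80.0, and STZ 6 for Slc24a2 at 20.8.

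The effect of diabetes differed between 3 months and 1 month for 35 of the 38 leading genes by the limma interaction test (adjusted p from 0.00171 to 0.0424); the genes were chosen on the 3 month arrays, which are part of that test. For raised genes the effect in percentile points at 3 months exceeded that at 1 month by the following amounts: Smad3 36.4, Tex101 35.1, Ackr2 33.2, Hif3a 33.2, Nr0b1 32.6, Osgin1 32.4, C4bpa 31.6, Neu2 31.2, Clec4f 30.5, Ifit1 30.1, Fut2 30.0, P2ry6 29.9, Ltb4r 29.1, Pdia4 28.7, Lgals3 27.6, Tgfbr3 26.3, Serping1 26.2, Slc6a11 20.2, Decr1 19.1 and Timp1 17.4. For lowered genes it was below that at 1 month by the following signed amounts: Slc24a2 -31.3, Cd46 -31.2, Sstr5 -31.0, Cmklr2 -28.3, C1s -28.2, Aspg -26.4, Lum -25.7, Qrfp -25.7, Pip4k2b -25.7, Tyms -25.2, Myd88 -25.1, Stx7 -24.1, Cat -22.7, Fbn1 -19.4 and H2bc1 -19.0. The 3 others were Cebpd, Id4 and Kcne2.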

How the results depend on the processing

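Counts of probes depended on the settings. For rank separation (1196 raised, 491 lowered), no filter gave 813 lowered, a filter at percentile 50 gave 323 lowered, a gap over 1 point gave 794 and 289, median-scaled values gave 1938 raised, and the filter on bacterial probe levels, added later, gave 670 raised. For limma (1993 higher, 1517 lower), no filter gave 3146 and 2619, a filter at percentile 50 gave 589 and 348, median-scaled log2 values gave 8138 higher, 1 model of the 4 groups gave 4153 and 2900, array weights gave 3792 and 3131, the brightness covariate gave 0 and 0, and an unadjusted p under 0.05, added later, gave 4243 and 3351. The methods' t-test gave 3286 higher and 714 lower at their threshold, and 516 lower after Benjamini-Hochberg adjustment. For the difference between times (2306 probes), quantile-normalized log2 values gave 1454 and no filter 4416. Leaving out 1 array gave 1268 to 2652 raised (highest without Control 6), 519 to 1462 lowered (highest without Control 6; 949 without STZ 4), 660 to 3198 called higher and 283 to 2511 called lower (both lowest without STZ 5 and highest without Control 6). Leaving out Control 1 gave 948 and 530 limma calls, Control 3 gave 761 and 345, STZ 1 gave 1189 and 887, STZ 2 gave 1000 and 575, STZ 3 gave 890 and 531, and STZ 6 gave 724 and 370. For the difference between times the range was 1232 (without STZ 5 of 3 months) to 4659 (without Control 6 of 3 months), with 1435 without Control 3 and 1270 without STZ 6 of 3 months, and 1368, 1414 and 1453 without Control 5, Control 6 and STZ 4 of 1 month. Replicate numbers did not pair the arrays: deviations of same-numbered arrays correlated at -0.199 to 0.325, and not every array fitted best with its own number. The replicate block gave 1315 higher and 875 lower. On median-scaled log2 values 4 of the 97 named genes turned positive, Cyp51 (0.093), Rcvrn (0.30), Serpini1 (0.023) and Sgk1 (0.42). Of the 81 named genes that limma called, 46 stayed called whichever array was left out. The other settings, such as percentiles among the tested probes alone and limma without a trend, moved the counts less. The causes of these moves were not tested. By the rule, counts of separated probes can only rise when an array is left out, so they do not test stability. The number of arrays, 6 a group, limits what can be told apart.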

Other observations

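Further raised genes outside the lists, named after their values were seen, code for receptors of immune cells and for G protein-coupled receptors. These classes were not counted, and members of the same kinds were lowered, among them Klrg1, Ptger3, Sstr5 and Cmklr2. The control medians of Cd80 and Lilrb2 lay below the median bacterial probe of every control array. Cd80, a costimulatory ligand of antigen-presenting cells, was at 5.79 to 33.6 (median 15.0) in controls and at 42.6 to 48.7 (median 45.7) in STZ retinas, and Lilrb2, an inhibitory receptor of myeloid cells, rose from a median of 23.9 to 54.7. Il2rb, a subunit of the interleukin 2 receptor, rose from 31.6 to 59.4, and Cd276, of the same family as Cd80, from 67.4 to 79.0. Adrb3, a beta adrenergic receptor, was at 17.9 to 34.1 (median 29.8) in controls and at 50.6 to 59.7 (median 56.2) in STZ retinas, a rise of 0.99 ± 0.13 on the log2 scale (limma adjusted p = 0.00409). Drd3, a dopamine receptor, rose from 56.6 to 76.1 and Gpr83, a receptor of the brain, from 35.6 to 64.4. Grn, the lysosomal glycoprotein progranulin, was at 55.01 to 75.6 (median 74.3) against 80.4 to 86.3 (median 84.7), and its second probe differed by 10.2 points (limma adjusted p = 0.188).

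Eif2ak2, the kinase that senses double-stranded RNA in the antiviral response, had medians of 84.2 and 89.7 (limma adjusted p = 0.0584). Slc44a1, a choline transporter, rose from 41.0 to 54.7 by median, with 1 STZ retina at 98.2.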
